A study of Mus musculus with 2 samples.

Results

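Mir335, Mir483 and Mir675 are microRNA genes that lie inside 3 imprinted host genes, Mest, Igf2 and H19. They were chosen by name, with each symbol matched to its Ensembl identifier in the mouse annotation, and they make up 3 of 1973 microRNA genes counted. The samples were limbs of B6NCrl mouse embryos at embryonic day 14.5, and the assay sequenced RNAs shorter than 30 nucleotides, the size class of mature microRNAs. There was 1 group of 2 samples, biological replicates 1 and 2, so the design held no contrast between conditions. Per the labels, each sample was 4 limbs of a pup, the sex was pooled, and both carried the same donor and pup label with different collection days. Nothing else in the labels shows that they came from separate animals, so the spread between them may be partly technical.

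An imprinted gene is read from the copy of one parent only. Mest, which encodes an enzyme of the alpha/beta-hydrolase fold family and marks embryonic mesoderm, and Igf2, which encodes the insulin-like growth factor of the fetus, are expressed from the paternal copy. H19 makes a long noncoding RNA from the maternal copy and shares enhancers with its neighbour Igf2. MicroRNAs are cut from hairpins in such transcripts, and the seed of the mature strand, bases 2 to 8, pairs with target mRNAs. In human breast cancer cells miR-335 is known to restrain metastasis through SOX4 and tenascin C, miR-483 is raised together with IGF2 in human Wilms tumours, and in the mouse placenta miR-675 acts on the growth factor receptor gene Igf1r. The tables count microRNA genes only and do not separate alleles, so neither host mRNA levels nor parental origin was measured.

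The mature strands are shown first because the seed sets which mRNAs each gene can recognise. Sequences are from RefSeq on GRCm38.p6, 5′ to 3′, with the seed in capitals.
miR-335-5p: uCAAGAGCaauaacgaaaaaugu
miR-335-3p: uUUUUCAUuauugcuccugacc
miR-483-5p: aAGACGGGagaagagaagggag
miR-483-3p: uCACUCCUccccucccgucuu
miR-675-5p: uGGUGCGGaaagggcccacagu
miR-675-3p: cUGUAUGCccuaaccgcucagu
None of these seeds occurred in a mature microRNA of another gene in the RefSeq table, which held 1738 mature sequences of 1058 genes. This is common in that table, where 1182 mature sequences (68.0%) carried a seed of no other gene. The strands differ in composition. That of miR-483-5p is 95.5% purines and that of miR-483-3p is 9.52% purines, while GC content runs from 30.4% in miR-335-5p to 63.6% in miR-675-5p. No other annotated microRNA gene held any of these 6 sequences in full on either strand, and none of the 3 genes shared a stretch of 22 bases with another. Among the 333 genes detected with 10 or more counts in each library, 60 did share one. That bears on the counts because reads with several alignments were given to no gene.

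The hairpins are shown because the counts are per hairpin gene, so a level covers both strands together, and which strand gave the reads was not analysed here. The mature strands are in capitals.
Mir335: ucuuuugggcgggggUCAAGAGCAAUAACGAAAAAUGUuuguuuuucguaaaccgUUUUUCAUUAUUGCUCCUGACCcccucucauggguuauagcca
Mir483: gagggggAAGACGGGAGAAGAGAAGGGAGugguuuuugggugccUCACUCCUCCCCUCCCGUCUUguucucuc
Mir675: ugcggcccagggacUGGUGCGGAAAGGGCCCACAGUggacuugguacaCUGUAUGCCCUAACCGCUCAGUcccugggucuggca
The Mir335 hairpin has 98 bases with 42.9% GC, that of Mir483 has 73 bases with 58.9% GC, and that of Mir675 has 84 bases with 63.1% GC. The median GC content of the 289 detected genes with a RefSeq hairpin was 50.0%, and 22 of them lay above Mir675. A minimum free energy of folding was computed for each hairpin as a description of its sequence. Mir675 reached -66.7 kcal/mol per 100 bases, and 3 of the 289 were more stable by this measure. The value was -45.2 for Mir335 and -46.3 for Mir483, against a median of -43.5.

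The hosts differ in where they carry the hairpin. Mir335 (ENSMUSG00000065501.1) lies at chr6:30741299-30741396 on the plus strand of GRCm38 (mm10), in an intron of every one of the 7 Mest transcripts that span it and 474 bases from the nearest Mest exon. Mir483 (ENSMUSG00000070140.1) lies at chr7:142654924-142654996 on the minus strand, in an intron of all 7 spanning Igf2 transcripts and 445 bases from an exon. Mir675 (ENSMUSG00000076275.1) lies at chr7:142577064-142577147 on the minus strand, 77.8 kb from Mir483, and is exonic. It falls within exon 1 or exon 2 in 3 of the 4 H19 transcripts that span it, and within an intron of the other. All 3 are on the strand of their host.

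**Figure D1:**
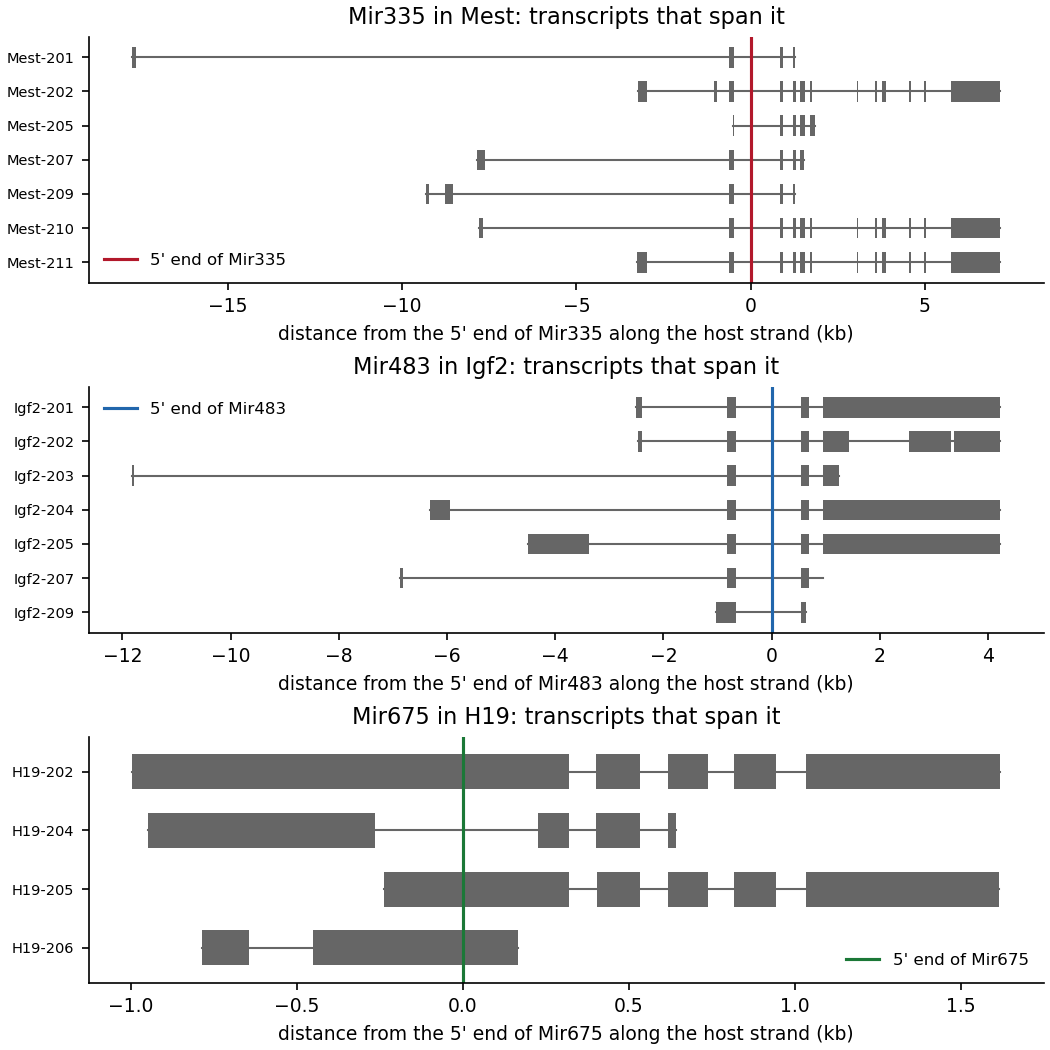
Exons (boxes) and introns (lines) of the annotated host transcripts that span each microRNA gene, by distance in kb from its 5′ end (coloured line), with 1 panel per host. Mir335 and Mir483 fall in introns of all 7 spanning transcripts each, and Mir675 falls in an exon of 3 of 4.

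The libraries were deep and carried the markers of limb tissue. Counts on the own strand of a microRNA gene numbered 4608816 in replicate 1 and 4144385 in replicate 2, of 9001596 and 8387546 reads. All 6 listed microRNA genes of the Hox clusters, which pattern the limb, reached 10 counts in each library. They summed to 65414 and 68182 CPM (counts of a gene scaled to the own-strand sum, in parts of 1000000). The cartilage genes Mir140 and Mir455 summed to 59560 and 63162 CPM. Mir122, the microRNA of liver, had 29 and 56 counts, and Mir216a, Mir216b and Mir217, which mark pancreas, had 13 and 14 counts together. The genes listed for heart, Mir208a and Mir208b, summed to 642 and 441 counts, or 139 and 106 CPM, about the level of Mir675. Only 11 and 9 of these counts were of Mir208a. The others were of Mir208b, and whether that gene marks heart alone was not tested.

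All 3 genes were detected in both libraries, at levels far apart from each other. Mir335 had 367075 counts in replicate 1 and 305901 in replicate 2, or 79646 CPM (95% interval 79399 to 79894) and 73811 CPM (73559 to 74063). Intervals are exact Clopper-Pearson intervals that cover counting error only. Its mean was 76729 ± 4126 CPM (SD, n = 2), and its share was 7.96% of own-strand counts in replicate 1 and 7.38% in replicate 2. Mir335 alone gave 56.3% and 52.5% of all own-strand counts on chromosome 6, where 80 microRNA genes were counted and 12 detected. It ranked 1 in each library. That rank rests on counts without the reads with several alignments (31.8% and 32.6% of all reads in replicates 1 and 2). Genes that share sequence with others may therefore be undercounted beside it.

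Mir483 had 14635 and 13597 counts in replicates 1 and 2, or 3175 CPM (3124 to 3227) and 3281 CPM (3226 to 3336). With a mean of 3228 ± 74.5 CPM (SD, n = 2) it held 0.318% and 0.328% of own-strand counts. The rank was 58 and 59 among the 1973 genes. On chromosome 7 it was the highest of 137 microRNA genes, 13 of them detected, and gave 39.7% of that chromosome's counts in either library.

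Mir675 had 573 and 522 counts in replicates 1 and 2, or 124 CPM (114 to 135) and 126 CPM (115 to 137). The mean was 125 ± 1.15 CPM (SD, n = 2), at ranks 183 and 181. Its 2 libraries lay closer together than the counting intervals are wide, so that SD is smaller than the precision of the counts. All these levels lay well above the floor of 3 counts, which equals 0.651 CPM at the depth of replicate 1 and 0.724 CPM at that of replicate 2.

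**Figure D2:**
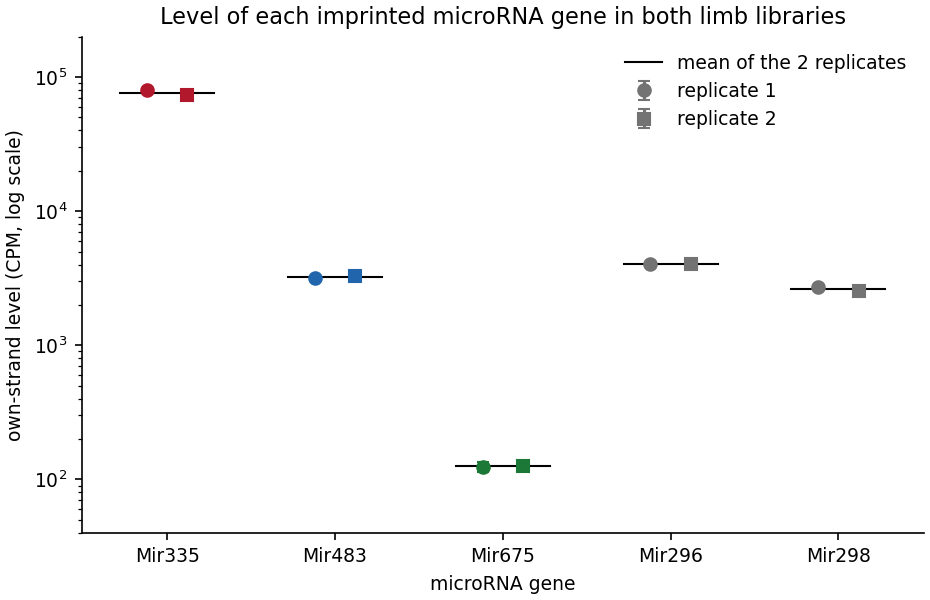
Own-strand level in CPM (log axis) of Mir335, Mir483, Mir675 and, for comparison, Mir296 and Mir298, in replicate 1 (circles) and replicate 2 (squares), with the mean as a line and 95% counting intervals as bars, mostly smaller than the symbols. Mir335 sits near 76729 CPM, Mir483 near 3228 CPM and Mir675 near 125 CPM, and the libraries of each gene lie close together.

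Ratios between the genes were taken within each library. Mir335 had 25.1 times the counts of Mir483 in replicate 1 (24.7 to 25.5) and 22.5 times in replicate 2 (22.1 to 22.9). The mean ratio was 23.8 ± 1.83 (SD, n = 2), or 17.7 ± 1.36 per base of annotated gene. Against Mir675 it was 641-fold (590.2 to 697) and 586-fold (538 to 639.8), with a mean of 613 ± 38.6, or 526 ± 33.1 per base. The RNAs sequenced were shorter than 30 nucleotides, and so shorter than each hairpin. Per-base values here and below are therefore a description and not a correction for length. How evenly different microRNAs are captured and amplified was not measured, so these ratios compare reads and not amounts of RNA.

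Mir483 and Mir675 come from neighbouring hosts that are read from opposite parental copies. Mir483 had 25.5 times the counts of Mir675 in replicate 1 (23.5 to 27.8) and 26.0 times in replicate 2 (23.9 to 28.5). The mean ratio was 25.8 ± 0.358 (SD, n = 2), or 29.7 ± 0.412 per base. The intervals of the 2 libraries overlapped for this ratio and for Mir335 to Mir675, whereas those of Mir335 to Mir483 did not. Both ratios that overlapped are widened by the low counts of Mir675, 573 and 522. No p-value was computed, because genes of a library are not replicates of a condition.

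The genes next in level place each member. Mir335 was followed by Mir140, the cartilage microRNA, at 55579 and 58999 CPM in replicates 1 and 2, and by Mir322 at 52530 and 54899 CPM. Neither overlapped the range of Mir335. Mir483 stood below Mir98 (3386 ± 141 CPM) and Mir342 (3308 ± 254 CPM) and above Mirlet7b (3212 ± 131 CPM) and Mir149 (3108 ± 224 CPM). The gaps to Mir342, Mirlet7b and Mir149 were smaller than the SD of those genes, and in replicate 2 Mir483 had 3281 CPM against 3287 CPM for Mir98, so this order was not resolved beyond the spread. Mir675 stood among Mir679 (131 ± 37.0 CPM), Mir101a (126 ± 2.67 CPM), Mirlet7c-1 (124 ± 3.95 CPM) and Mir208b (121 ± 23.1 CPM), and its order among them was not resolved either. Mirlet7c-1 shares a stretch of 22 bases with another gene and may be undercounted. With 2 samples of 1 group, likeness in level was the only likeness that could be described.

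**Figure D3:**
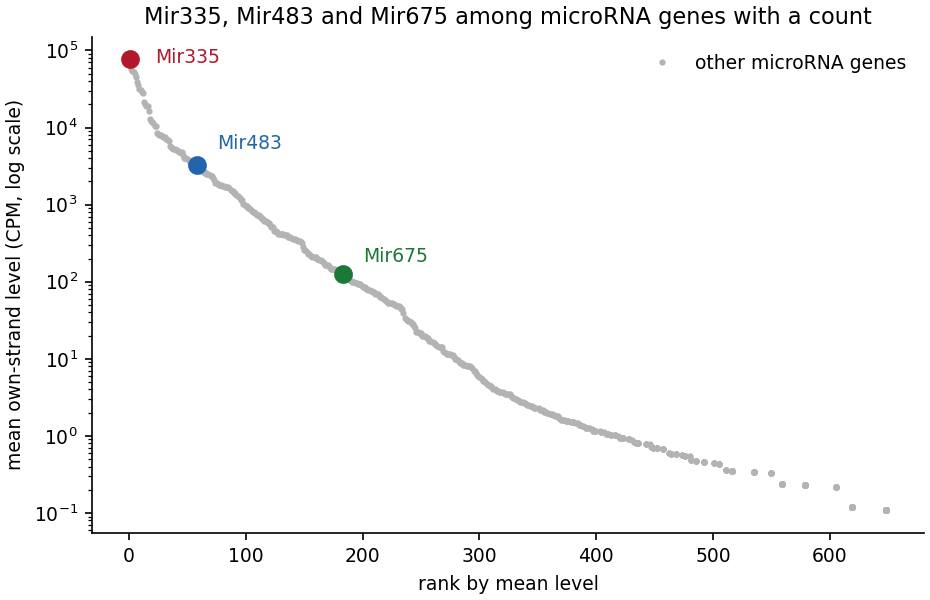
Mean own-strand level in CPM (log axis) against rank for every microRNA gene with a count, with the 3 imprinted genes in colour. Mir335 stands at rank 1, Mir483 at rank 58 and Mir675 at rank 183 by mean level.

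On the chromosome, the members were set beside every other counted microRNA gene within 1 Mb. Mir335 had 6, of which Mir182 was highest at 4804 ± 44.0 CPM (SD, n = 2), followed by Mir183 at 1817 ± 42.0 CPM and Mir96 at 895 ± 6.38 CPM. These 3 genes form the sensory organ cluster and lie on the opposite strand, about 572 to 575 kb away. Mir29a, 321 kb away on the opposite strand, reached 90.6 ± 2.92 CPM. Mir483 and Mir675 were each other's nearest counted neighbours. The remaining genes within 1 Mb of either were Mir3104, with no count in either library, and Mir7064 and Mir7063, with at most 12 counts each. No gene within 1 Mb reached the level of Mir335 near that gene, or of Mir483 near that gene, in either library.

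Other microRNA genes of imprinted domains give a scale. Mir296 and Mir298 lie 378 bases apart on chromosome 2, beside Nespas, the antisense RNA of the imprinted Gnas domain. Mir296 had 4037 and 4074 CPM and Mir298 had 2728 and 2523 CPM in replicates 1 and 2. Mir483 lay between them in both libraries, with 0.787 and 0.805 times the counts of Mir296 and 1.16 and 1.30 times those of Mir298. Mir675 lay below both, at 0.0456 and 0.0499 times the counts of Mir298.

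The single gene Mir335 was then set against the large imprinted clusters. It reached 0.838 times the sum of the 59 microRNA genes between Dlk1 and Dio3 on chromosome 12 in replicate 1 and 0.903 times in replicate 2. Against the 107 genes inside Sfmbt2 the ratio was 18.7 and 16.5. Of those 107 genes, 10 were detected, against 46 of the 59 between Dlk1 and Dio3 and 333 of all 1973 genes. Of the 107, 105 share a stretch of 22 bases with another gene. Their sum may be undercounted and the Sfmbt2 ratio too high. Of the 59 genes between Dlk1 and Dio3, 3 share one. All 4 sets together, 171 genes, held 18.9% and 17.0% of own-strand counts in replicates 1 and 2, and Mir335 supplied 42.1% and 43.4% of that.

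The libraries differed little for these genes. The log2 ratio of replicate 1 over replicate 2 was 0.11 for Mir335 (0.10 to 0.12), -0.05 for Mir483 (-0.08 to -0.01) and -0.02 for Mir675 (-0.19 to 0.16). Over the 190 genes that averaged 100 CPM or more, the median size of this ratio was 0.11, and 93 genes had a larger one than Mir335, 152 than Mir483 and 175 than Mir675. With TMM scaling the value for Mir335 was 0.17 and with DESeq2 size factors 0.18, and those for Mir483 and Mir675 turned positive under both, so no direction is given for these genes. Tissue markers also differed between the libraries, in both directions. The skeletal muscle genes Mir206 and Mir133b summed to 6196 CPM in replicate 1 and 4520 CPM in replicate 2, and the epidermal genes Mir203 and Mir205 to 53900 and 43852 CPM. The lists for red blood cells and heart were also higher in replicate 1. Those for cartilage (59560 and 63162 CPM), liver and leukocytes, except Mir150, were lower in replicate 1. The Hox sum was lower (65414 and 68182 CPM) through Mir196b alone (49518 and 54433 CPM), while every other listed Hox gene was higher in replicate 1. Endothelium is Mir126a, whose log2 ratio of -0.02 was smaller in size than that of Mir483. Pancreas had 13 and 14 counts, so neither is given a direction. All these sums are in CPM and were not rescaled with TMM or DESeq2 size factors. The part of these tissues in the difference of Mir335 was not tested. In whole tissue, fewer cells of a type and less RNA per cell cannot be told apart.

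**Figure D4:**
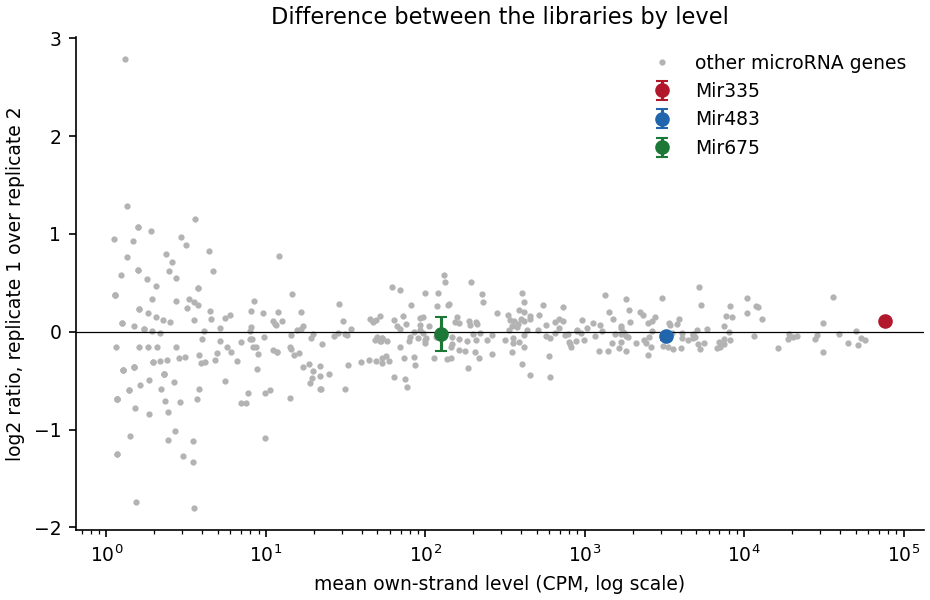
Log2 ratio of replicate 1 over replicate 2 against mean own-strand level (CPM, log axis) for the 407 microRNA genes that had 10 or more counts over both libraries, with the 3 imprinted genes in colour and bars for their 95% counting intervals. The ratios are 0.11 for Mir335, -0.05 for Mir483 and -0.02 for Mir675, all within the range of -0.47 to 0.58 over genes that averaged 100 CPM or more.

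Reads on the opposite strand were nearly absent at all 3 genes. Mir335 had 0 and 1 opposite-strand count in replicates 1 and 2, and Mir483 and Mir675 had 0 in both, where a count of 0 allows up to 0.651 and 0.724 CPM. Levels from counts on either strand therefore rest on the same reads.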

How the data were processed

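The authors deposited 1 table per sample, which holds unnormalized whole-number read counts for each microRNA gene. Reads had been aligned to mm10 and counted on GENCODE M4, per the deposited read-me texts. The aligner and counting settings are not given in the sources used here. The 3 unnamed count columns were read as either, own and opposite strand from their values. Rows without a gene were left out: unmapped reads were 12.8% and 13.7% of all reads in replicates 1 and 2, reads with several alignments 31.8% and 32.6%, and reads on no annotated gene's own strand 4.19% and 4.31%.

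Own-strand counts were scaled to CPM by their sum. No quasi-likelihood test was run, because 1 group has no contrast. Intervals are exact binomial intervals at 95%. They were checked on simulated counts with counting error only, so the check does not cover other differences between libraries. No molecular identifiers are recorded. For the scatter of all genes a prior count of 0.5 was added. Names and positions came from GENCODE M21 of the same build by gene ID (1894 of 1973 matched). Sequences came from RefSeq by symbol, with chr18 left out (869 matched). Tools were RNAfold 2.7.2, scipy 1.17.1 and matplotlib 3.10.9 in Python 3.11.15, and, for alternative scaling, edgeR 4.0.16 (TMM) and DESeq2 1.42.0 in R 4.3.3.

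Genes named were the 3 members, Mir296 and Mir298, any gene sharing a member's seed, the 2 genes next above and below in level, and tissue markers. Genes within 1 Mb were added after values were seen. Members and lists were chosen with earlier results of these data known. Marker lists not described with the results were endothelium (18963 and 19268 CPM in replicates 1 and 2), red blood cells (539 and 409 CPM), leukocytes (598 and 655 CPM) and brain, whose Mir124a-1, Mir124a-2 and Mir124a-3 share sequence and had no count.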

Additional observations from a re-analysis of the deposited data

How the results depend on the processing

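Scaling by TMM or DESeq2 size factors moved the mean level of each gene by less than its SD. With the total enlarged by the reads that aligned to several places, Mir335 fell to 46787 CPM, Mir483 to 1967 CPM and Mir675 to 76.3 CPM, since the total alone grew. With counts on either strand, Mir483 was 3127 CPM and Mir675 121 CPM, both because that total is larger, and Mir335 stayed within its SD at 74314 CPM. With Mir335 left out of the total, a setting chosen after seeing the data, Mir483 was 3496 CPM and Mir675 136 CPM. Per base of annotated gene, the ratio of Mir335 to Mir483 was 17.7, that of Mir335 to Mir675 526 and that of Mir483 to Mir675 29.7. Among genes without a shared stretch Mir675 ranked 159, by construction, since fewer genes were ranked, while Mir335 and Mir483 kept ranks 1 and 58. Leaving out each replicate gave ranks of 58 to 59 for Mir483 and 181 to 183 for Mir675. The log2 ratio of replicate 1 over replicate 2 was 0.17 with TMM and 0.18 with DESeq2 size factors for Mir335, 0.015 and 0.025 for Mir483, and 0.04 and 0.05 for Mir675, because the factors shift every gene by the same amount. No paired analysis was possible because there is 1 group. The counting interval of that ratio reached 0.0069 to either side for Mir335, 0.034 for Mir483 and 0.17 for Mir675. The values of Mir483 with TMM and DESeq2 size factors and all 3 values of Mir675 were smaller in size than that.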
